A study of Mus musculus with 24 samples.

Results

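The cytosolic ribosomal protein genes encode the proteins of the ribosome that works outside mitochondria. Members were the protein-coding rows of the count table whose mouse symbol begins with Rpl or Rps followed by a digit, together with Rplp0, Rplp1, Rplp2 and Rpsa. Pseudogene rows and the Rps6k kinases, which share only the letters of the name, were left out. This gave 89 of the 27179 genes in the table. By their known roles, 31 encode proteins of the small (40S) subunit, 43 encode proteins of the large (60S) subunit and 3 encode the P-stalk. A further 10 are paralogues, second genes that resemble a subunit gene, and 2 (Rps19bp1 and Rps23rg1) carry the name without encoding a subunit protein.

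Each of 8 mice gave 3 sorted populations from the colonic lamina propria, which makes 24 libraries. All mice carried the Nmur1iCre-eGFP allele, so that green fluorescence reports the neuromedin U receptor gene Nmur1. All had received 3% dextran sulfate sodium (DSS), which injures the colon, for 5 days and then water for 3 days. Mice 1 to 4 received intraperitoneal injections of neuromedin U (NMU), a neuropeptide, every other day, and mice 5 to 8 of phosphate-buffered saline (PBS) on the same schedule. The populations were eGFP+ group 2 innate lymphoid cells (ILC2), eGFP+ CD4 T cells (NMUR1+ CD4) and eGFP- CD4 T cells (NMUR1- CD4), with 4 libraries for each population and treatment. Sorting used CD45, CD90.2, CD127 and KLRG1 without lineage markers for ILC2, and CD45, CD3, CD5 and CD4 for T cells. The design text counts 3 mice per treatment, whereas the sample labels name 4; the labels were followed.

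A ribosome holds 1 copy of most of these proteins, and cells make them in matched amounts; unpaired ribosomal proteins are degraded. The 40S subunit reads the messenger RNA, the 60S subunit joins amino acids, and the P-stalk on the 60S subunit recruits the elongation factors. Transcription of these genes and of ribosomal RNA is raised by Myc. Translation of their messengers is raised by mTORC1, through a run of pyrimidines at the start of the messenger called the 5′ terminal oligopyrimidine tract. Lymphocytes raise ribosome production when they leave rest and grow. Messenger counts, as here, do not measure translation.

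Start-site sequence was found for 69 of the 89 members in RefSeq (assembly GRCm38.p6, the sequence behind mm10). The windows below run from 40 bases before to 20 bases after the annotated start, 5′ to 3′ on the gene's strand. They are shown because these genes carry the comparisons that follow: Rps9, Rpl14, Rpl35, Rpl13, Rps19 and Rpl37a were higher in ILC2, and Rps27l and Rpl36al were lower. Capitals mark a run of at least 8 C or T bases that lies within the stretch from 10 bases before to 20 bases after the start; bases outside that stretch were not counted. The windows lie at chr7:3704001-3704060 (+ strand, Rps9), chr9:120571477-120571536 (+, Rpl14), chr2:39005112-39005171 (-, Rpl35), chr8:123102310-123102369 (+, Rpl13), chr7:24884552-24884611 (+, the first of several annotated starts of Rps19), chr1:72711220-72711279 (+, Rpl37a), chr9:66946046-66946105 (+, the first of several starts of Rps27l) and chr12:69184048-69184107 (-, Rpl36al).
Rps9: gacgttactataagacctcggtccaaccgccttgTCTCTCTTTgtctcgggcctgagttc
Rpl14: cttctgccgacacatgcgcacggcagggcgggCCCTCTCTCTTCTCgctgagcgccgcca
Rpl35: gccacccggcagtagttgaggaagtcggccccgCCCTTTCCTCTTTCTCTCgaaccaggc
Rpl13: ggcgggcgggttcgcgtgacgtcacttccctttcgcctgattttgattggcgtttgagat
Rps19: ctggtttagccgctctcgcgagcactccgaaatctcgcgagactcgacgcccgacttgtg
Rpl37a: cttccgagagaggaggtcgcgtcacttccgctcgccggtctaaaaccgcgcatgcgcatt
Rps27l: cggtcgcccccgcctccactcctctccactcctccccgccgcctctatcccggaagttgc
Rpl36al: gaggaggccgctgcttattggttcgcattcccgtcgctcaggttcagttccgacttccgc

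Such a run within the stretch was found for 26 of the 69 members (37.7%), against 13.0% of 27025 genes with a promoter in the same table. The letters CCGGAAG, on either strand of the 300 bases around the start, were present in 37.7% of members and 9.93% of all genes. The letters ATGGCGG were present in 15.9% and 4.69%, and TATAAA in 11.6% and 15.7%. Among the genes of mitochondrial ribosomal proteins, 8.70% had a pyrimidine run and 37.7% had CCGGAAG. Of the 8 windows printed above, those of Rps9, Rpl14 and Rpl35 hold such a run within the stretch. Those of Rpl13, Rps19 and Rpl37a, which were also higher in ILC2, do not. The pyrimidine runs of Rpl13 and Rps27l begin further upstream and have fewer than 8 bases within the stretch. Of the members tested, 15 of 25 with such a run were called higher in ILC2 than in NMUR1+ CD4 T cells, as were 25 of 40 without one. Among all genes tested, 15.1% were called higher. A run shorter than 8 bases, or one at a start that is not annotated, counted as absent. Whether the runs found are 5′ terminal oligopyrimidine tracts was not tested.

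Libraries held 8485266 to 17854961 gene counts. Genes with any count numbered 10778 to 13736 in ILC2 libraries, 13154 to 15664 in NMUR1+ CD4 and 14998 to 15955 in NMUR1- CD4. In NMUR1+ CD4 libraries immunoglobulin genes took from 0.784% to 30.4% of counts, and over 20% in mice 1, 4, 5 and 7; in ILC2 they took at most 7.93% and in NMUR1- CD4 at most 5.58%. The summed T-cell markers separated ILC2 from the CD4 populations, whose own ranges overlapped. They stood at 540 to 1247 CPM (a gene's share of a library's counts, on a common scale) in ILC2. In NMUR1+ CD4 they stood at 5904 to 8441 and in NMUR1- CD4 at 7363 to 8783. The summed B and plasma cell markers were at 5341 to 304790 CPM in NMUR1+ CD4, against 375 to 59528 in ILC2 and 1101 to 37700 in NMUR1- CD4. Macrophage and dendritic cell markers were at 1043 to 3408, 130 to 1073 and 311 to 1065 CPM in the same order. Nothing in the labels says whether the 3 populations of a mouse were processed on the same day.

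All members summed took 1.08% to 2.74% of a library's counts. ILC2 of NMU-treated mice 1 to 4 had 2.74%, 1.89%, 2.59% and 2.32%, and ILC2 of PBS-treated mice 5 to 8 had 2.09%, 2.15%, 2.14% and 1.98%. NMUR1+ CD4 T cells had 1.08%, 1.62%, 1.90% and 1.14% after NMU and 1.23%, 1.61%, 1.39% and 1.56% after PBS. NMUR1- CD4 T cells had 1.95%, 2.41%, 2.25% and 1.73% after NMU and 1.81%, 2.08%, 2.00% and 2.27% after PBS. Each NMUR1+ CD4 library was below the NMUR1- CD4 and the ILC2 library of the same mouse, in 8 of 8 mice, while the ranges over all mice overlapped. ILC2 and NMUR1- CD4 overlapped, with ILC2 higher in 6 of 8 mice. Over 8 mice the shares were 2.24% ± 0.295 (SD, n = 8) in ILC2, 1.44% ± 0.281 in NMUR1+ CD4 and 2.06% ± 0.234 in NMUR1- CD4.

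**Figure D1:**
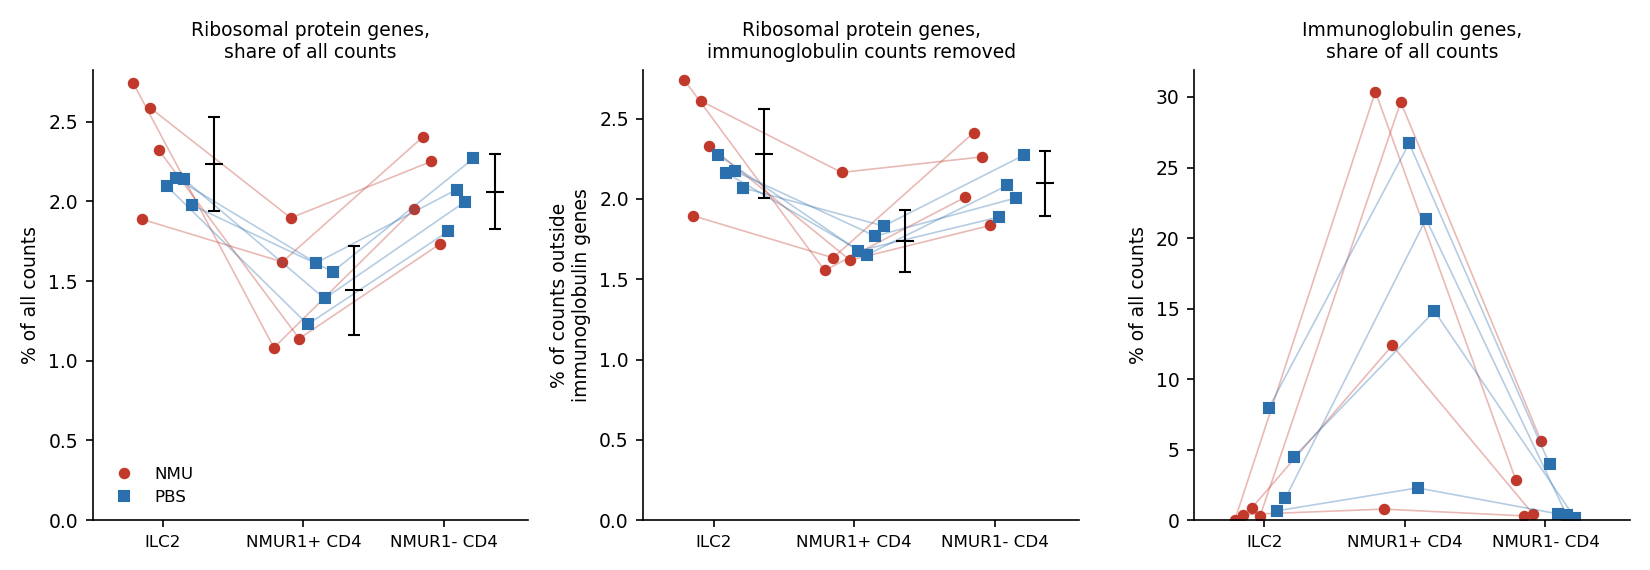
Share of each library's counts (y axis, %) in ribosomal protein genes, in ribosomal protein genes after immunoglobulin counts were removed, and in immunoglobulin genes, by population (x axis). Points are libraries, lines join the populations of 1 mouse, and bars give the mean and SD of 8 mice; within each mouse the NMUR1+ CD4 library lies lowest in the first panel, and its values overlap those of other mice; the NMUR1+ CD4 share outside immunoglobulin genes ran from 1.55% to 2.17%.

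Because immunoglobulin counts dilute every other gene, the share was also taken over the counts outside immunoglobulin genes. It was then 2.28% ± 0.278 (SD, n = 8) in ILC2, 1.74% ± 0.193 in NMUR1+ CD4 and 2.10% ± 0.202 in NMUR1- CD4. The distance between the CD4 populations was smaller on this scale. In the 2 mice with the fewest immunoglobulin counts among NMUR1+ CD4 libraries, mouse 2 had 1.63% in NMUR1+ against 2.41% in NMUR1- CD4, and mouse 6 had 1.65% against 2.08%. Small-subunit and large-subunit genes kept nearly the same proportion everywhere: the ratio of their summed counts was 0.747 ± 0.0182 (SD over 24 libraries, 0.712 to 0.774).

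Within this total the genes differed widely. Levels of different genes were compared as CPM per kilobase of coding length, after edgeR's TMM scaling of the libraries. The median over the 87 members with a coding length was 306 CPM per kb. Rpl41, which encodes the smallest ribosomal protein, stood at 2534 CPM per kb, a value that rests on a coding length of only 75 bases. Rps3, of the messenger entry channel, stood at 1663, Rpl32 at 1610, Rps27 at 1559 and the stalk scaffold Rplp0 at 1541. The paralogues had a median of 97.2. Rpl39 was far below the other subunit genes at 6.66 CPM per kb, and the next lowest, Rps12, stood at 84.8. For Rps12, 85.4% of the 50-base stretches of its transcript also occur in other annotated genes, so reads from it could be assigned elsewhere; for Rpl39 the share was 16.2%. Rpl10l had no count in any library, and Rps23rg1, Rpl3l and Rpl39l, with 5, 20 and 101 counts over all libraries, were too low to be tested. The genes that Rpl10l, Rpl3l and Rpl39l resemble were tested: Rpl10 (0.35) and Rpl3 (0.48) were higher in ILC2 than in NMUR1+ CD4, while Rpl39 had 0.99 and 1.17 CPM (-0.23, adjusted p = 0.721).

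Mapping limits apply to the whole family, since ribosomal protein genes have many processed pseudogenes. The median member shared 55.4% of its 50-base stretches with another annotated gene, and 53 of the 87 members with a transcript shared more than 50%. The sources used here do not say how reads that fit several genes were counted. The 34 rows of the table whose symbol marks a ribosomal protein pseudogene (-ps) held 0.0869% as many counts as the members. Genes that share sequence under other names, such as Gm12174 with Rpl7, were not among these rows. This percentage is therefore not the part of all reads that went to pseudogenes. Of 53 tested members sharing more than 50%, 34 were called higher in ILC2 than in NMUR1+ CD4 T cells, as were 22 of 30 sharing 50% or less. The share called higher among all genes tested was 15.1%. The part of shared reads in these calls was not tested.

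ILC2 had more ribosomal protein messenger than NMUR1+ CD4 T cells of the same mice for most members. Of 85 members tested, 56 were higher in ILC2 and 2 were lower (edgeR quasi-likelihood test over all 24 libraries, Benjamini-Hochberg adjusted p under 0.05), where 15.1% of 13509 genes tested were higher and 23.5% were lower. The median log2 fold change was 0.36 for members and -0.10 for all genes tested. All roles took part: 23 of 31 small-subunit genes, 29 of 43 large-subunit genes and 3 of 3 stalk genes were higher, and neither subunit nor stalk had a lower gene. The 2 lower genes, Rpl36al and Rps27l, are both paralogues. In bulk libraries fewer cells of a type and less RNA per cell cannot be told apart.

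**Figure D2:**
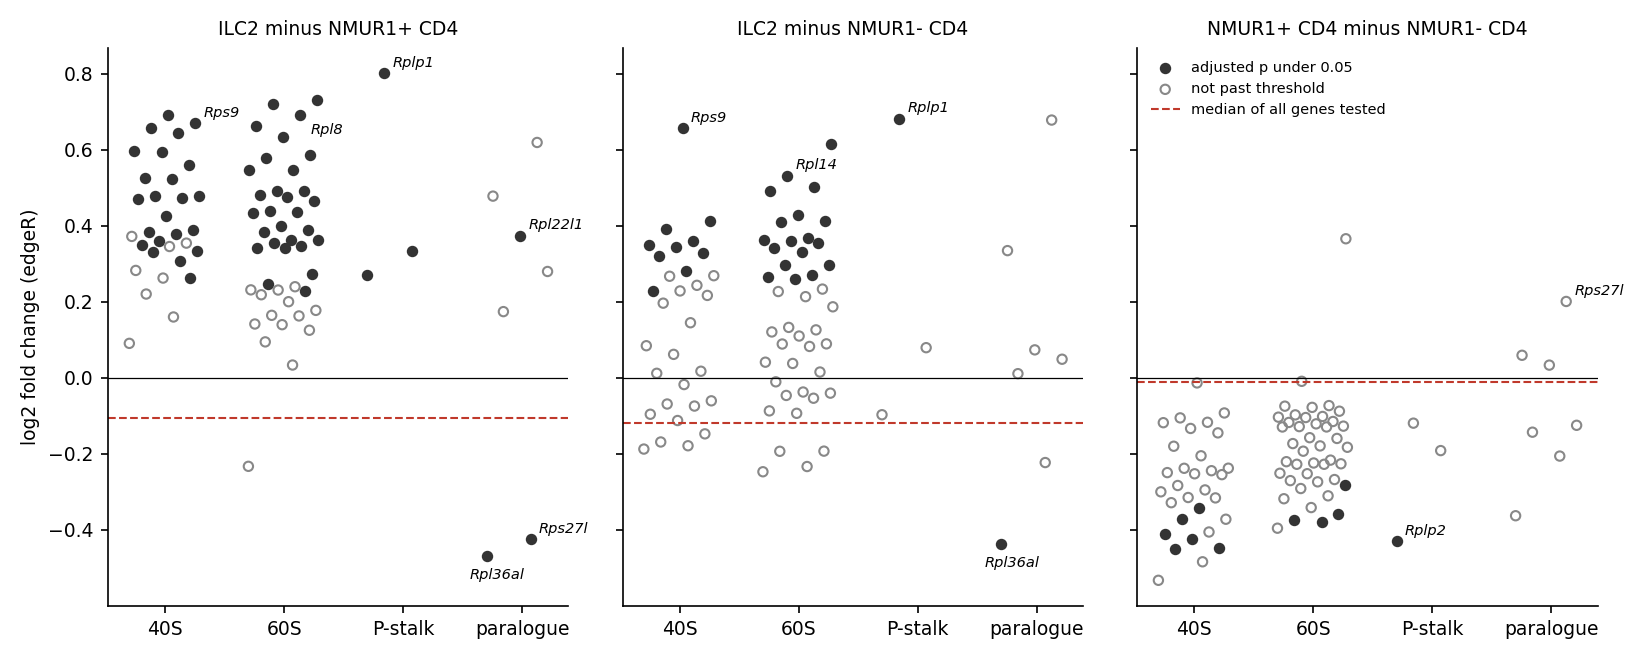
Log2 fold change (y axis) of each ribosomal protein gene in the 3 comparisons of populations, by role (x axis); filled points passed the adjusted threshold and the dashed line is the median of all genes tested. Nearly all subunit and stalk genes lie above that line in the first panel and below it in the third, and Rpl36al and Rps27l lie apart from them on the lower side of the first panel.

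Among small-subunit genes, Rps9 had a lowest, median and highest value of 288, 352 and 432 CPM in ILC2, 179, 216 and 269 in NMUR1+ CD4 and 190, 215 and 251 in NMUR1- CD4. No ILC2 library overlapped a CD4 library, while the CD4 populations covered the same range. The difference was 0.67 ± 0.093 (log2 ± SE) against NMUR1+ CD4 (edgeR adjusted p = 4.7e-06) and 0.66 ± 0.093 against NMUR1- CD4 (adjusted p = 4.9e-06), in 8 of 8 mice each. Rps20, of the 40S head, had 123.5, 137.4 and 149.9 CPM (lowest, median, highest) in ILC2 and 67.8, 79.5 and 109 in NMUR1+ CD4, again without overlap. Rps19, needed to mature the 40S subunit, had 500 ± 76.8 and 317 ± 43.5 CPM, a difference of 0.66 ± 0.10 found in 8 of 8 mice. Rps3a1 (0.60) and Rps7 (0.56) were also higher in every ILC2 library than in any NMUR1+ library. Rpsa, which also encodes the laminin receptor precursor, did not pass the test in any of the 3 comparisons, with 181.3 ± 32.4, 155.4 ± 24.7 and 193.6 ± 27.6 CPM (SD, n = 8) in ILC2, NMUR1+ and NMUR1- CD4.

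Among large-subunit genes, Rpl8, whose protein lies near the peptidyl transferase centre, had 452, 488 and 558 CPM (lowest, median, highest) in ILC2, 284, 297 and 355 in NMUR1+ CD4 and 327, 358 and 457 in NMUR1- CD4. It separated ILC2 from NMUR1+ CD4 completely and from NMUR1- CD4 except that the NMUR1- library of mouse 2 lay above the ILC2 libraries of mice 2 and 8. Its log2 difference was 0.69 ± 0.079 (adjusted p = 3.1e-07) against NMUR1+ and 0.41 ± 0.079 against NMUR1- CD4. Rpl14 had 355, 397 and 459 CPM in ILC2, 214, 237 and 326 in NMUR1+ CD4 and 242, 263 and 316 in NMUR1- CD4, with every ILC2 library above every CD4 library. Its log2 differences were 0.66 ± 0.097 (adjusted p = 1.1e-05) and 0.53 ± 0.097 (adjusted p = 1.2e-04). Rpl13 (0.73 ± 0.13) and Rpl35 (0.72 ± 0.11), the latter at the exit of the peptide tunnel, were higher than in NMUR1+ CD4 in 8 of 8 mice, although the ranges of the populations overlapped. In all, 9 members had no overlap between ILC2 and NMUR1+ CD4 with ILC2 higher, where 4.09% of all genes tested had this: Rps20, Rpl8, Rps9, Rpl14, Rpl15, Rps3a1, Rps7, Rpl32 and Rpl4.

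All 3 stalk genes were higher in ILC2 than in NMUR1+ CD4. Rplp1, a partner in the P1/P2 pair that contacts elongation factors, had 240, 356 and 508 CPM (lowest, median, highest) in ILC2, 182, 204 and 248 in NMUR1+ CD4 and 203, 217 and 256 in NMUR1- CD4. Only the ILC2 library of mouse 2 reached into the CD4 ranges. With 0.80 ± 0.11 (adjusted p = 4.8e-06) against NMUR1+ CD4 it had the largest log2 difference among the members that passed that test, and it differed by 0.68 ± 0.11 from NMUR1- CD4. Its partner Rplp2 had 91.5 ± 15.2 CPM in ILC2, 72.7 ± 8.01 in NMUR1+ and 97.9 ± 13.6 in NMUR1- CD4. Rplp2 was higher in ILC2 than in NMUR1+ CD4 (0.33, adjusted p = 0.0220) and lower in NMUR1+ than in NMUR1- CD4 (-0.43 ± 0.11, adjusted p = 0.0179), and did not pass the test between ILC2 and NMUR1- CD4 (-0.10, adjusted p = 0.526). The scaffold Rplp0 had 1595 ± 343, 1307 ± 190 and 1494 ± 222 CPM and passed only between ILC2 and NMUR1+ CD4 (0.27, adjusted p = 0.0384). Whether Rplp1 and Rplp2 differ from each other in their change was not tested.

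**Figure D3:**
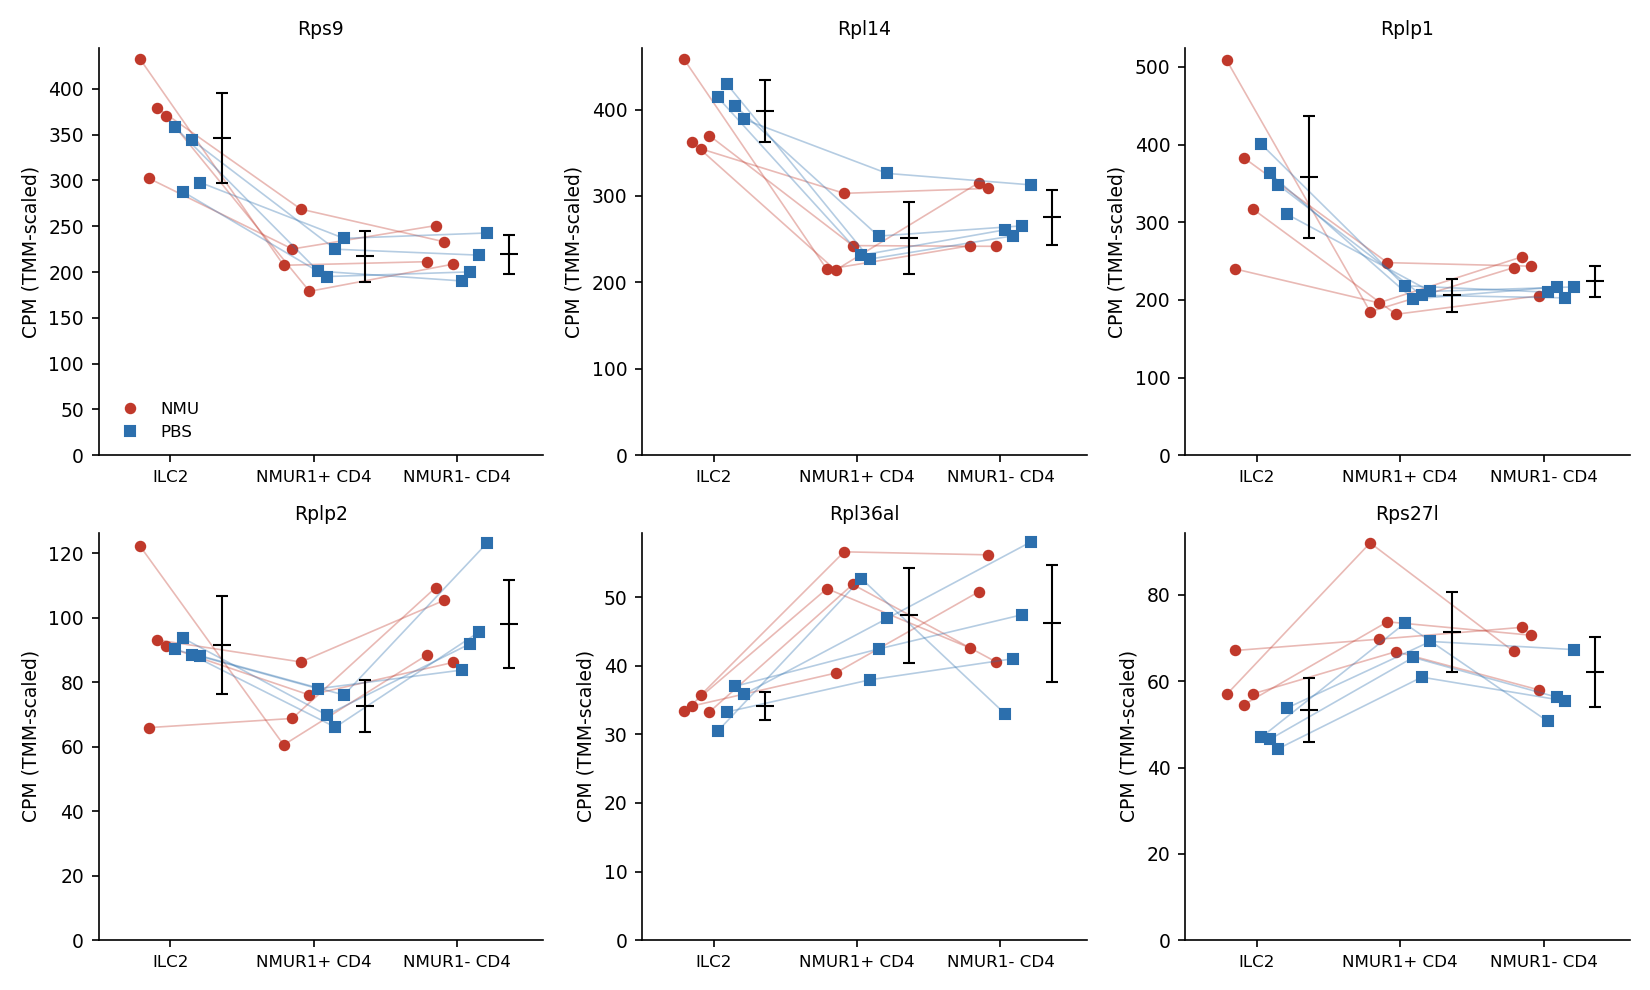
TMM-scaled CPM (y axis, from 0) of 6 ribosomal protein genes in ILC2, NMUR1+ CD4 and NMUR1- CD4 libraries (x axis). Points are libraries, lines join 1 mouse and bars give the mean and SD of 8 mice; Rps9 and Rpl14 are higher in every ILC2 library than in any CD4 library, Rplp2 has its lowest mean in NMUR1+ CD4, and Rpl36al and Rps27l have their lowest means in ILC2.

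Immunoglobulin counts moved with this comparison. With immunoglobulin genes left out of the table, 62 members were higher in ILC2 and 2 lower, with a median of 0.38, where 16.2% of genes were higher and 22.3% lower. Without the 4 NMUR1+ libraries above 20% immunoglobulin, 29 members were higher and 1 was lower, with a median of 0.31, where 1572 of 14293 genes were higher and 16.9% lower. Rps9 (0.58), Rpl14 (0.57) and Rplp1 (0.74) passed the test in that fit too. Scaling by total counts alone, which lets immunoglobulin counts lower all other genes, gave 74 higher and 0 lower, where 23.0% of genes were higher and 17.0% lower. That scaling moved the median of all genes from -0.10 to 0.12, and the median of members lay 0.47 above the median of all genes under TMM and 0.46 above it under total counts.

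Between ILC2 and NMUR1- CD4 T cells fewer members differed. Of 85, 29 were higher in ILC2 and 1, Rpl36al, was lower, where 16.4% of genes tested were higher and 24.1% lower. All 29 were among the 56 higher than in NMUR1+ CD4; both comparisons use the same ILC2 libraries. The median log2 fold change was 0.13, against -0.12 for all genes. By role, 10 of 31 small-subunit genes, 18 of 43 large-subunit genes and 1 of 3 stalk genes (Rplp1) were higher. In 8 of 8 mice, 4 of 85 members were higher in ILC2 and 2 were lower, where 9.34% and 14.9% of all genes had this. The members higher in every mouse were thus a smaller share than among all genes. Only Rps9, Rpl14 and Rpl37a had no overlap with ILC2 higher, where 5.86% of genes had none. Rpl37a had 147, 171 and 249 CPM (lowest, median, highest) in ILC2 and 122, 132 and 144 in NMUR1- CD4, a difference of 0.43 ± 0.10 (adjusted p = 0.00179). Total-count scaling left 8 higher and 3 lower, where 1777 of 13509 genes were higher and 26.2% lower, so the higher members were then no larger a share than among all genes; by that scaling the members' median stayed 0.26 above that of all genes, against 0.25 under TMM. Leaving out a mouse gave 19 (mouse 7) to 35 (mouse 2) higher members, where 1906 of 13789 and 1972 of 13801 genes were higher in those 2 runs.

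NMUR1+ CD4 T cells had less ribosomal protein messenger than NMUR1- CD4 T cells of the same mice in 11 of 85 members, and more in none (edgeR, adjusted p under 0.05), where 2.83% of genes tested were lower and 5.49% higher. At an unadjusted p under 0.05, 43 members differed in either direction, as did 21.6% of genes; DESeq2 called 14 lower and limma voom 12, and neither called one higher. By role, 6 of 31 small-subunit genes, 4 of 43 large-subunit genes and 1 of 3 stalk genes were lower, among them Rps20, Rps26, Rps16, Rps21, Rpl31, Rpl27, Rpl12, Rpl8 and Rplp2. The median log2 fold change was -0.22 over members and -0.01 over all genes. The level was lower in NMUR1+ CD4 in 8 of 8 mice for 33 members and higher in 8 of 8 for 0, where 6.31% and 8.13% of all genes had this.

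Rps20 had 67.8, 79.5 and 109 CPM (lowest, median, highest) in NMUR1+ and 93.8, 107 and 139 in NMUR1- CD4. The ranges overlapped, but the NMUR1- library of the same mouse was higher in 8 of 8 mice, with a log2 difference of -0.41 ± 0.11 (adjusted p = 0.0214). Rpl27 had 67.1 ± 6.01 against 86.9 ± 11.8 CPM (SD, n = 8), lower in 8 of 8 mice (-0.37, edgeR adjusted p = 0.0247). No member had ranges without overlap in this comparison, where 1.01% of genes did with NMUR1+ lower and 2.29% with NMUR1+ higher.

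The number of calls depended on which libraries entered the fit. When immunoglobulin genes were left out, 16 members were lower and 0 higher (median -0.22), where 3.00% of genes were lower. Without the 4 NMUR1+ libraries above 20% immunoglobulin, 0 members were lower in edgeR, where 0.728% of genes were, and the median was -0.14. In that fit 11 of 86 members and 14.4% of genes had an unadjusted p under 0.05, so the members were near the share of all genes. Leaving out 1 mouse left 2 calls where that was mouse 1, 4 for mouse 2, 22 for mouse 3, 6 for mouse 4, 11 for mouse 5, 3 for mouse 6, and 1 for mouse 7 or mouse 8. Over all genes 320 of 13805, 300 of 13801, 280 of 13767 and 311 of 13758 were lower without mouse 1, 2, 3 or 4 in turn. Without mouse 5, 6, 7 or 8 it was 305 of 13724, 335 of 13659, 233 of 13789 and 218 of 13755. In the runs without mouse 1, 7 or 8 the members were thus near or below the share of all genes. Total-count scaling gave 75 lower (19.1% of all genes) and moved the median of all genes from -0.01 to -0.33; the members' median stayed 0.20 below that median, against 0.21 under TMM. In the order of mean levels, 59 of 85 members stood highest in ILC2 and lowest in NMUR1+ CD4, with NMUR1- CD4 between them. This order was not counted over all genes.

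The paralogues Rpl36al and Rps27l were lower in ILC2, a direction in which no subunit or stalk gene passed the test; of the 7 paralogues tested against NMUR1+ CD4, 1 was higher and 5 had a positive log2 fold change. Rpl36al, the second gene for the protein encoded by Rpl36a, had 30.5, 33.7 and 37.0 CPM (lowest, median, highest) in ILC2, 38.0, 49.1 and 56.6 in NMUR1+ and 33.0, 45.0 and 58.0 in NMUR1- CD4. Every ILC2 library was below every NMUR1+ library, a pattern 6.14% of genes had, and below the NMUR1- library of its own mouse. Against NMUR1- CD4 the ranges overlapped, where 8.53% of genes had none with ILC2 lower. The log2 difference was -0.47 ± 0.12 against NMUR1+ (adjusted p = 0.00375) and -0.44 ± 0.12 against NMUR1- CD4 (adjusted p = 0.00608). Rpl36a went the other way, with 85.6 ± 18.8 CPM in ILC2 and 56.6 ± 9.71 in NMUR1+ CD4 (0.59, adjusted p = 3.1e-04). The call of Rpl36al against NMUR1+ CD4 was lost under total-count scaling (-0.23, adjusted p = 0.163) and without the 4 libraries above 20% immunoglobulin (-0.40, adjusted p = 0.0669).

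A ratio of the 2 genes within a library does not depend on library scaling. Per kb of coding sequence, Rpl36al to Rpl36a stood at 0.278, 0.455, 0.360 and 0.377 in ILC2 of mice 1 to 4 and at 0.321, 0.540, 0.509 and 0.492 in mice 5 to 8. In NMUR1+ CD4 it stood at 0.950, 0.760, 0.710 and 0.951, then 0.913, 0.712, 0.876 and 0.866. In NMUR1- CD4 it stood at 0.620, 0.696, 0.774 and 0.710, then 0.564, 0.635, 0.741 and 0.812. All 8 ILC2 ratios lay below all 16 CD4 ratios. The mean log2 difference within a mouse was -1.04 (SD 0.457, n = 8) from NMUR1+ and -0.76 (SD 0.304) from NMUR1- CD4, each with p = 0.0078 in a 2-sided exact permutation test that flips the sign of each mouse. That is the smallest p that 8 mice allow, and adjusted over the 15 ratio comparisons made it was 0.0586. This test, also used for the other paralogues below, was added after the values of the genes had been seen. It therefore gives no support separate from the differences of the 2 genes. Mice 2, 3, 6 and 8 had the lowest immunoglobulin shares among NMUR1+ CD4 libraries, though mice 3 and 8 still had 12.4% and 14.8%. In these 4 mice the ratio was 0.462 in ILC2 and 0.762 in NMUR1+ CD4, with no overlap. The exact permutation p was 0.125 (adjusted 0.469), the smallest p that 4 mice allow. For Rpl36a, 85.5% of 50-base stretches occur in other annotated genes, and for Rpl36al 63.3%, so the counting of shared reads bears on the size of this ratio.

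**Figure D4:**
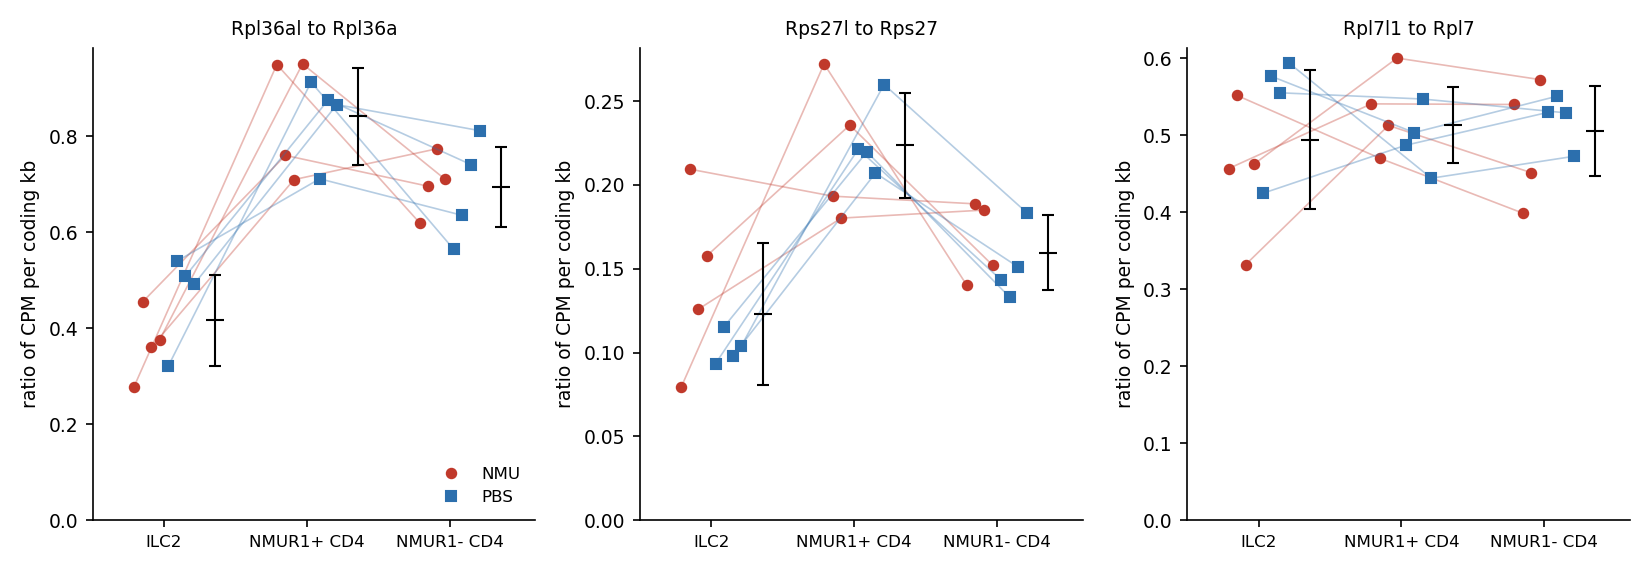
Ratio of paralogue to partner gene (y axis, CPM per kb of coding sequence, from 0) in each library by population (x axis) for Rpl36al, Rps27l and Rpl7l1. Points are libraries, lines join 1 mouse and bars give the mean and SD of 8 mice; the Rpl36al ratio is at most 0.540 in ILC2 libraries and at least 0.564 in CD4 libraries, while the Rpl7l1 ratio covers the same range in the 3 populations.

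Rps27l, a p53-inducible paralogue of Rps27, had 44.4, 54.2 and 67.1 CPM (lowest, median, highest) in ILC2, 61.0, 69.5 and 92.1 in NMUR1+ and 50.7, 62.4 and 72.5 in NMUR1- CD4. It was lower in ILC2 than in NMUR1+ CD4 in 8 of 8 mice (-0.42 ± 0.093, adjusted p = 9.0e-04), and the call held without the 4 libraries above 20% immunoglobulin (-0.39, adjusted p = 0.0135) but not under total-count scaling (-0.19, adjusted p = 0.160). Against NMUR1- CD4 the difference was -0.22 (adjusted p = 0.0592), lower in 8 of 8 mice. Rps27 itself was higher in ILC2 than in NMUR1+ CD4, with 458 ± 120 against 319 ± 46.3 CPM (0.53, adjusted p = 0.00188). The ratio of Rps27l to Rps27 was 0.123 ± 0.0423 (SD, n = 8) in ILC2, 0.224 ± 0.0315 in NMUR1+ and 0.160 ± 0.0225 in NMUR1- CD4. It was lower in ILC2 than in NMUR1+ CD4 in 7 of 8 mice (exact permutation p = 0.0156, adjusted 0.0670).

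Of the other paralogues, Rpl22l1 was higher in ILC2 than in NMUR1+ CD4 (63.1 ± 6.52 against 48.9 ± 7.77 CPM, log2 0.37, adjusted p = 0.0189), as was Rpl22 (log2 0.38, adjusted p = 0.00979). Per coding kb, Rpl22l1 stood at 1.16 times Rpl22 in ILC2, 1.15 times in NMUR1+ and 1.38 times in NMUR1- CD4. This ratio was lower in NMUR1+ than in NMUR1- CD4 in 6 of 8 mice (mean log2 difference -0.26, exact permutation p = 0.0313, adjusted 0.0670). In mice 2, 3, 6 and 8, with the lowest immunoglobulin shares among NMUR1+ CD4 libraries, it was lower in 4 of 4, without overlap. There the exact permutation p was 0.125 (adjusted 0.469), the smallest p that 4 mice allow. The ratio of Rpl7l1, which despite its name takes part in ribosome assembly, to Rpl7 was 0.494, 0.513 and 0.506. Rps27rt, a retrogene copy, had 18.3 ± 3.73 CPM in ILC2 and 13.2 ± 4.29 in NMUR1+ CD4 (0.48, adjusted p = 0.0568); 91.1% of its 50-base stretches occur in other genes, most of them in Rps27. Rps19bp1, which encodes a protein that binds RPS19 and is no subunit, had 16.1 ± 5.20, 15.8 ± 3.00 and 16.1 ± 1.65 CPM and passed no test.

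The arms of the NMU comparison, made inside each sorted population, were different mice. No member passed the adjusted threshold in any population by edgeR, DESeq2 or limma voom. In ILC2 0.66% of 11205 genes tested passed by edgeR, and in NMUR1+ and NMUR1- CD4 T cells 0% did. At an unadjusted p under 0.05 edgeR found 3 of 85 members in ILC2, where 12.4% of genes had this, 0 of 84 in NMUR1+ CD4 (2.55% of genes) and 0 of 84 in NMUR1- CD4 (7.25%). The median log2 fold change of members was 0.11 in ILC2, 0.05 in NMUR1+ and 0.08 in NMUR1- CD4, beside -0.03, 0.0047 and 0.0097 for all genes. Members above 0 numbered 66 of 85, 67 of 84 and 70 of 84, beside 5346 of 11205, 6125 of 12061 and 6211 of 12103 among all genes. Members of 1 library moved together, so they are not separate measurements.

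The 3 members in ILC2 were Rpl41, Rps26 and Rplp0. Rpl41 had 305, 190, 234 and 232 CPM in ILC2 of mice 1 to 4 after NMU and 173, 177, 165 and 159 in mice 5 to 8 after PBS. All 4 NMU values were above all 4 PBS values, mouse 1 by the most and mouse 2 by the least. The difference was 0.49 ± 0.15 (edgeR adjusted p = 0.191). A single edgeR fit of all 24 libraries, which shares the spread between populations, gave 0.51 with an adjusted p of 0.0376. That fit called 1053 of 13509 genes, 496 of them higher, against 74 of 11205 in the fit of ILC2 alone. Among members it called 1 higher and 0 lower. Rps26, at the exit of the messenger channel, had 241, 163, 228 and 197 CPM after NMU and 155, 152, 151 and 144 after PBS, also without overlap (0.44 ± 0.14, adjusted p = 0.223). Rplp0 had 2067, 1362, 2094 and 1808 CPM after NMU and 1413, 1425, 1362 and 1225 after PBS, where mouse 2 lay inside the PBS range (0.41 ± 0.14, adjusted p = 0.234). With Rps27l and Rpl4, 4 members had no overlap with NMU higher, which 4.58% of all genes tested had. With NMU lower, 0 members and 4.78% of genes had no overlap. In NMUR1+ CD4 (1.04% of genes higher, 0.829% lower) and NMUR1- CD4 (1.91% and 2.57%) the ranges of every member overlapped.

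**Figure D5:**
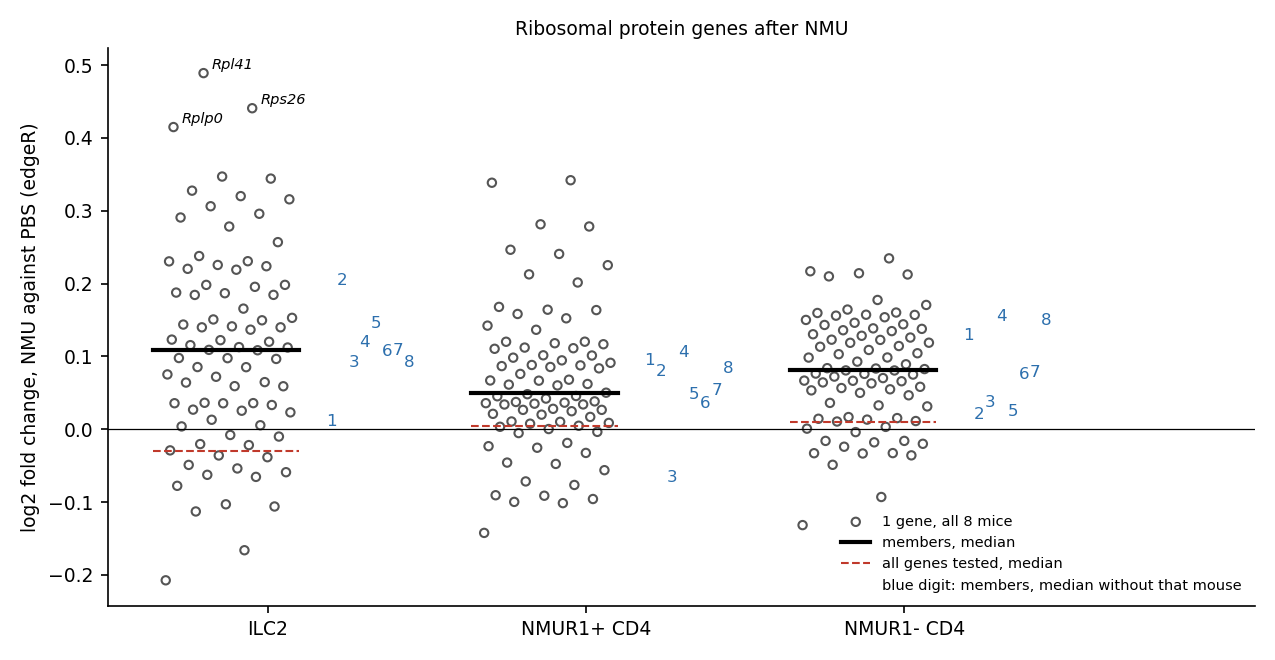
Log2 fold change of NMU against PBS (y axis) for each subunit, stalk and paralogue gene in the 3 populations (x axis), with the median of members, the median of all genes tested and, as blue digits, the median of members when the mouse of that number is left out. No gene passed the adjusted threshold, and the ILC2 median runs from 0.01 without mouse 1 to 0.20 without mouse 2.

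Single mice set these medians. In ILC2 the median was 0.11 with all mice, 0.01 without mouse 1 and 0.20 without mouse 2. In NMUR1+ CD4 it fell to -0.07 without mouse 3 and was 0.19 without the 4 libraries above 20% immunoglobulin. In NMUR1- CD4 it ran from 0.02 without mouse 2 to 0.16 without mouse 4. Under total-count scaling the medians were 0.15, -0.0036 and 0.0087.

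Differences of the NMU effect between populations were tested as interaction terms in edgeR. No member passed, where 0.725% of genes did between ILC2 and NMUR1+ CD4, 0.533% between ILC2 and NMUR1- CD4, and 0% between the CD4 populations; DESeq2 and limma voom also called 0 members. At an unadjusted p under 0.05 there were 2 members (Rpl15 with 0.42 and Rps19bp1 with -0.82), 1 member (Rpl41 with 0.49) and 0 members, where 13.2%, 11.3% and 1.16% of genes had this. Rps19bp1 had 17.5, 14.1, 6.70 and 12.1 CPM in ILC2 after NMU and 23.7, 19.2, 19.5 and 16.2 after PBS. Mouse 1 overlapped the PBS values, and the difference did not pass (-0.66, adjusted p = 0.566).

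In some groups 1 library was highest or lowest for most of the family. Among ILC2 libraries of NMU-treated mice, mouse 1 had the highest value of the 4 in 70 of 85 members and mouse 2 the lowest in 71. The ILC2 library of mouse 1 also had the fewest genes with any count of all libraries, 10778. The part of this in the ranks was not tested. Among NMUR1+ CD4 libraries after NMU, mouse 3 was highest in 77. Among NMUR1- CD4 libraries after NMU, mouse 4 was lowest in 76, and after PBS mouse 8 was highest in 72. The other PBS groups were less uniform: in ILC2 mouse 5 was highest in 50 and mouse 8 lowest in 43, and in NMUR1+ CD4 no library was highest in more than 37 or lowest in more than 36. The mouse that was high differed between populations: mouse 1 was highest in ILC2 and mouse 3 in NMUR1+ CD4.

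Part of the spread between mice was shared by the genes, more so in the NMU groups than in the PBS groups. The median SD of log2 CPM over 77 subunit and stalk genes was 0.284 in ILC2 after NMU, and 0.113 once each library's median over the members had been subtracted. In NMUR1+ CD4 after NMU it went from 0.248 to 0.102, and in NMUR1- CD4 after NMU from 0.195 to 0.0758. The PBS groups were tighter to begin with, at 0.116 in ILC2, 0.107 in NMUR1+ and 0.141 in NMUR1- CD4, and stood at 0.0899, 0.0907 and 0.0798 afterwards. The median coefficient of variation of members with at least 10 CPM was 7.52% to 19.3% over the 6 groups, against 13.7% to 27.9% for all genes with at least 10 CPM. Beyond this cut the genes were not matched to the members in level. Mitochondrially encoded genes took 1.29% to 1.59% of counts in ILC2 after NMU and 0.840% to 1.20% after PBS, and B and plasma cell markers 375 to 5511 against 4779 to 59528 CPM; their part in these values was not tested.

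Genes of the same pathway, from lists drawn up by function, were read in the same fits. Of 22 translation factors and other genes with a pyrimidine tract, 11 were higher and 2 lower in ILC2 than in NMUR1+ CD4, 5 higher and 4 lower than in NMUR1- CD4, beside the shares of all genes in these comparisons, 15.1% higher and 23.5% lower, and 16.4% and 24.1%. The elongation factor Eef1a1 had 1939 ± 297 CPM in ILC2, 1350 ± 157 in NMUR1+ and 1454 ± 94.5 in NMUR1- CD4 and passed both tests (0.52 and 0.41). Between the CD4 populations, Pabpc1 (-0.27), Npm1 (-0.30) and Ybx1 (-0.42), which bind RNA or assemble ribosomes, were lower in NMUR1+, and the cytoskeletal gene Vim was higher.

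Of 68 genes for ribosome assembly and ribosomal RNA synthesis, 13 were higher and 4 lower in ILC2 than in NMUR1+ CD4, and 6 higher and 13 lower than in NMUR1- CD4; that is 19.1% higher and 5.88% lower, and 8.82% and 19.1%, beside the same shares of all genes. Polr1c, a subunit of RNA polymerases I and III, was higher against both (0.61 and 0.72), and Pno1, which acts in 40S maturation, was lower against both (-0.56 and -0.88). Of 11 genes of the Myc network tested, 5 were higher and 3 lower in ILC2 in each comparison. Among all genes, 15.1% were higher and 23.5% lower against NMUR1+ CD4, and 16.4% and 24.1% against NMUR1- CD4. Myc had 337 ± 187 CPM in ILC2, 139 ± 30.4 in NMUR1+ and 87.2 ± 17.4 in NMUR1- CD4. Myc was also higher in NMUR1+ than in NMUR1- CD4 (0.66, edgeR adjusted p = 0.0201), the comparison in which 11 ribosomal protein genes were lower. A link between Myc and these genes was not tested. Of 36 mTORC1 pathway genes, 9 were higher and 8 lower against NMUR1+ CD4, and 7 higher and 8 lower against NMUR1- CD4. Beside the same shares of all genes, the lower mTORC1 genes were near the share expected from all genes.

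The genes of mitochondrial ribosomal proteins, which serve the separate ribosome inside mitochondria, were mostly lower in ILC2 where they passed. Of 77 tested, 3 were higher and 30 lower in ILC2 than in NMUR1+ CD4 (median -0.23), and 3 were higher and 38 lower than in NMUR1- CD4 (median -0.35). The lower share was 39.0% against 23.5% of all genes in the first comparison and 49.4% against 24.1% in the second, and all genes also leaned lower. Mrpl44 had 27.2 ± 7.72 CPM in ILC2, 51.3 ± 9.30 in NMUR1+ and 64.7 ± 10.9 in NMUR1- CD4, and Mrpl38 went the other way with 37.0 ± 9.68, 21.1 ± 4.51 and 20.8 ± 2.77. Between the CD4 populations 1 of 77, Mrpl18, was lower in NMUR1+.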

How the data were processed

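Colonic ILC2 and CD4 T cells of 8 mice were sequenced as 24 libraries. Whole-number counts per gene were deposited by the authors, and the submitters' processing notes name STAR 2.5.3 and mm10; the counting tool is not given in the sources used here. Identifiers were matched to symbols for 25275 of 27179 genes. The members and lists were chosen with earlier results of these data known. Tests were edgeR 4.0.16 quasi-likelihood fits over all genes (robust, filterByExpr with a minimum count of 10, TMM, Benjamini-Hochberg threshold 0.05): 1 fit of 24 libraries for populations and interactions, and 1 fit of 8 libraries per population for NMU against PBS. CPM values are TMM-scaled, and DESeq2 1.42.0 and limma 3.58.1 voom served as alternatives. Same-numbered libraries come from 1 mouse, per the labels; over all genes their deviations correlated between -0.012 and 0.40. The main fit of 24 libraries had no term for the mouse, so its p-values do not use this pairing. A fit with mouse as a block was an alternative. P-values measure the spread between these samples. Genes named were Rpsa, the stalk genes, the paralogues with their partners, Rps19bp1, the largest differences past the threshold with 1 sign in all 8 mice, the 5 smallest p for NMU effects, the highest and lowest levels per kb, and the largest changes of each related list; others were chosen after their values were seen. The test of paralogue ratios was added after the values were seen. Some genes that the naming rules select are not reported here. The fits were tested on simulated data.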

Additional observations from a re-analysis of the deposited data

Results flagged for a closer look

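In each group of 4 libraries the gap between an extreme library and its neighbour was set against Dixon's 95% critical value, 0.829, for the named genes; 10 of 234 groups passed it, and chance alone gives about 1 in 20. Of these, 4 were the NMUR1+ CD4 library of mouse 3 after NMU, the library that was highest of its group in 77 of 85 members: Rpl15 with 196 CPM (mean of the other 3 libraries 152), Rpl36a with 79.8 (53.2), Rpl8 with 355 (295) and Rplp0 with 1755 (1200). In ILC2, Rpl14 stood at 459 CPM in mouse 1 after NMU (362 in the others) and Rpl31 at 47.4 in mouse 8 after PBS (60.5). In NMUR1+ CD4 after PBS, mouse 6 was low for Rpl35, at 182 CPM (221), and Rps25, at 64.0 (71.0). In NMUR1- CD4, Rps27 stood at 472 CPM in mouse 1 after NMU (378) and Rpl7l1 at 176 in mouse 6 after PBS (165).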

How the results depend on the processing

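Among the named genes, for which this was checked, no called difference changed direction under any alternative run. The uncalled NMU median in NMUR1+ CD4 was below 0 without mouse 3 and by total counts. Against NMUR1+ CD4, members higher in ILC2 went from 56 to 29 without the 4 NMUR1+ libraries above 20% immunoglobulin, a setting chosen after seeing the data, and members lower from 2 to 1, or to 0 by total counts, where the median was 0.58. Against NMUR1- CD4, total counts gave 8 higher and 3 lower, voom 2 lower, and leaving out a mouse 19 to 35 higher. Between the CD4 populations the 11 lower members became 75 by total counts (median -0.53), 0 without the 4 libraries, and 1 to 22 without a mouse. Over all genes, leaving out a mouse gave 218 (mouse 8) to 335 (mouse 6) lower. In ILC2, 1 fit of all libraries called 1 member higher after NMU, where 496 of 13509 genes were called higher. The interaction median between ILC2 and NMUR1+ CD4 ran from -0.11 to 0.17 without a mouse. The ribosomal share after PBS was 2.17% in ILC2 outside immunoglobulin genes and 2.195% also outside mitochondrial genes, and 1.73% and 1.75% in NMUR1+ CD4. The replicate block on mouse gave 55 higher and 2 lower, 28 and 1, and 0 and 12 members in the 3 comparisons.

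Over all genes, NMU against PBS called 74 in ILC2, 454 by DESeq2, 1053 in 1 fit and 12 to 63 without a mouse; in NMUR1+ CD4 DESeq2 called 2 and leaving out a mouse 0 to 1; in NMUR1- CD4 DESeq2 called 21. Between the CD4 populations 1123 became 3056 by total counts, 393 without the 4 libraries and 609 to 1035 without a mouse. The interaction of ILC2 and NMUR1+ CD4 called 98, with 54 unfiltered, 512 by DESeq2, 24 by voom, 46 with the replicate block, 15 without the 4 libraries and 30 to 106 without a mouse. That of ILC2 and NMUR1- CD4 called 72, with 386, 21 and 36 by DESeq2, voom and the block, and 20 to 83 without a mouse. That of the CD4 populations called 0, with 4 by DESeq2 and 1 with the block. By total counts the genes higher and lower were 3105 and 2295 (2043 and 3175 by TMM), 1777 and 3540 (2219 and 3252), and 474 and 2582 (741 and 382). The cause of these shifts was not tested.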

Other observations

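Mycn, a relative of Myc, stood at 28.9 ± 17.0 CPM (SD, n = 8) in ILC2 and was near 0 in both CD4 populations. Vim, whose messenger also begins with a pyrimidine tract, was lower in ILC2 than in NMUR1+ CD4 (-1.65) and NMUR1- CD4 (-1.21). In ILC2 it was higher after NMU, with 182 ± 13.1 CPM (SD, n = 4) against 94.1 ± 12.7 (log2 0.93, edgeR adjusted p = 0.0246), while no ribosomal protein gene passed in that comparison.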
